A study of Mus musculus with 2 samples.

Results

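The genes of voltage-gated calcium, sodium and potassium channels, of the other potassium channels and of the hyperpolarization-activated channels were chosen by symbol: every gene whose name begins with Cacna, Cacnb, Cacng, Kcn, Scn with a digit or Hcn with a digit. The rule found 143 of the 32285 genes listed, 138 of them protein coding and 5 noncoding, and it used no measured value. They were followed through the cell types of the mouse pituitary, and between an old and a young gland, in single-cell RNA sequencing of whole pituitaries from male C57BL/6 mice. The old library came from mice aged 20 months and the young library from mice aged 2 months, and each pooled the glands of 10 mice. With 1 library per age nothing could be tested between ages, mice within a pool cannot be told apart, and every interval below is a 95% interval that covers counting error only.

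Pituitary endocrine cells fire action potentials, and calcium entering through voltage-gated channels drives hormone release. Pore subunits carry the current, accessory subunits (alpha2delta, beta, Kvbeta, KChIP and the like) set where and how the pores work, and leak and inward rectifier potassium channels hold the resting potential that hypothalamic hormones and dopamine act on. Stem cells line the cleft of the anterior lobe, and pituicytes are the glia of the posterior lobe, where oxytocin and vasopressin axons end.

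Transcripts were counted by unique molecular identifiers (UMIs), 138427393 in the old library and 154510099 in the young. After filtering, 9017 old and 8531 young barcodes were kept. Of these, 5733 old and 0 young barcodes formed a cluster whose profile matched that of barcodes of 10 to 100 UMIs, taken as empty droplets (r = 0.999 over genes, which share libraries and are no replicates), and it was left out as free RNA. These empty droplets summed to 19711372 old and 431742 young UMIs, so their young levels rest on few UMIs, with 1 UMI at 4.6 CPM. A further 216 old and 470 young barcodes stayed unnamed. The kept barcode sequences of the libraries had 24 in common, 14 of them in named classes. Cells were clustered without the 143 channel genes and named from other markers, so no class rests on a channel. The classes described are somatotroph-like cells (growth hormone, with 1133 old and 3988 young cells), lactotroph-like cells (prolactin, 268 old and 384 young), corticotroph-like cells (311 old and 1292 young), melanotroph-like cells of the intermediate lobe (145 old and 44 young), stem cell-like cells (247 old and 982 young) and pituicyte-like cells (84 old and 56 young). The lactotroph-like cluster had the thyrotroph gene Tshb among its 10 leading genes, so thyrotrophs were not separated from it. Gonadotroph-like cells numbered 13 old and 18 young, too few for the comparisons, and are only described.

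Levels are counts per 1000000 (CPM), over the UMIs of a class without 7 hormone and 13 mitochondrial genes. UMIs come from transcript 3′ ends and were not divided by gene length. Of the 143 genes, 117 had at least 20 UMIs in named cells over both libraries, 24 had 1 to 19, and 2 (Kcnk15 and Kcnk16) had none. Summed over the protein-coding channels, pituicyte-like cells stood at 3068 CPM in the old library (2941 to 3198) and 2932 in the young (2757 to 3116), and melanotroph-like cells at 3090 in the old (2980 to 3203) and 3238 in the young (2990 to 3501). A single gene described below, Scn7a, gave 1618 CPM (old) and 1559 CPM (young) of the pituicyte-like sum. Macrophage-like cells, which should carry few of them, stood at 596 CPM (old) and 436 CPM (young), and T or NK cell-like cells at 527 (old) and 386 (young).

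A channel was said to mark a class when its CPM was at least 2 times that in every other named class of 20 or more cells, in both libraries, with at least 10 UMIs in the class in each. Over 13 classes, 13 of 322 measured pairs of class and channel met this rule, as did 1.57% of measured pairs over all genes. The 6 classes named above held 11 of them, of 270 measured there, each with a different channel. The share of all genes that marked is given beside each class.

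**Figure D1:**
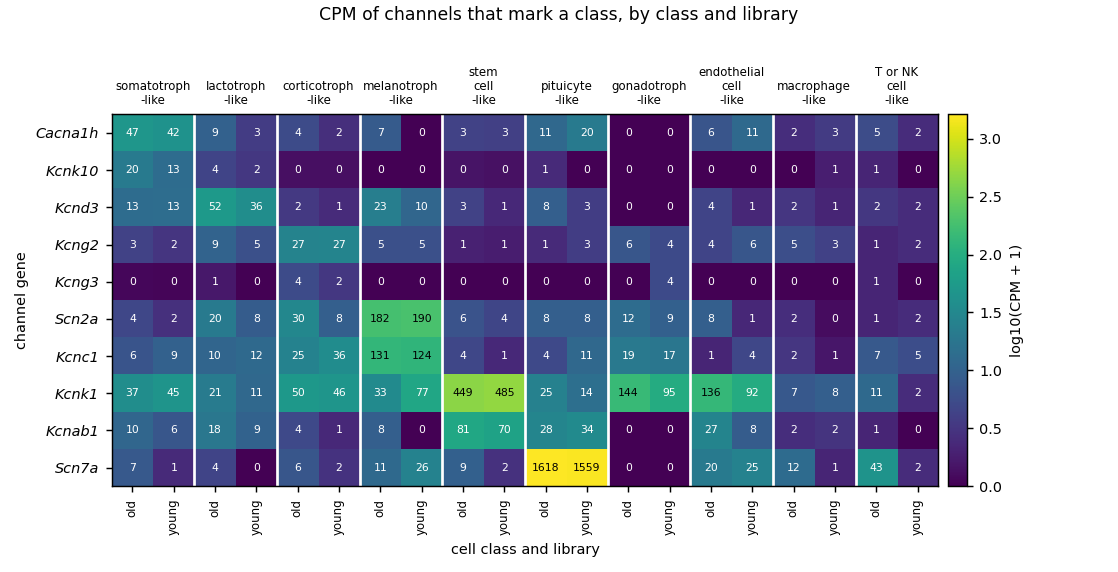
Each row is 1 of 10 channels that marked 1 of the 6 classes, each column a cell class in the old (left) and young (right) library, and the number and colour give the CPM (colour on a log10 scale of CPM + 1). Every row is brightest in the class it marks in both libraries, except Kcng3, which is at 4.3 CPM in young gonadotroph-like cells; levels in the marked class run from Scn7a at 1618 CPM (old) and 1559 CPM (young) in pituicyte-like cells to Kcng3 at 4.5 CPM (old) and 2.4 CPM (young) in corticotroph-like cells.

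Pituicyte-like cells carried the strongest mark. Scn7a, an atypical sodium channel that senses extracellular sodium in glia of the rodent brain rather than opening with voltage, stood at 1618 CPM (1527 to 1714) in old and 1559 CPM (1432 to 1694) in young pituicyte-like cells. The next class was at 43.1 CPM (T or NK cell-like) in the old library, 37.5 times lower, and at 25.7 CPM (melanotroph-like) in the young, 60.6 times lower. Scn7a also led the list of genes that set the cluster apart, although it was not used to build it. With every cell thinned to 2000 UMIs, 78.6% of old and 73.2% of young pituicyte-like cells had at least 1 Scn7a UMI, against 3.25% of old and 0.654% of young T or NK cell-like cells, whose median depths were 5549 (old) and 4105 (young) UMIs. Unthinned, the pituicyte-like shares were 88.1% (old) and 83.9% (young). Of the 12 channels measured in pituicyte-like cells Scn7a alone marked them, where 2.23% of all measured genes did. The sequence around its start is shown because this is the channel with the largest fold over the next class (GRCm38.p6, RefSeq, chr2:66784861-66785160, minus strand, from 250 bases before the start to 50 after it).
Scn7a: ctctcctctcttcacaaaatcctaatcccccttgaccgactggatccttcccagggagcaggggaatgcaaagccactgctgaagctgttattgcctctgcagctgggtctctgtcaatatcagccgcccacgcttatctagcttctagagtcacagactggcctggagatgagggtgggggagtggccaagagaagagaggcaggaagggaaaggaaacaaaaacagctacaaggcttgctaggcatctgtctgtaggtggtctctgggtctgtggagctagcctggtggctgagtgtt
Capitals would mark a SOX core (ACAATG), a homeodomain core (TAATTA), a T-box motif (AGGTGT) or an RE1 motif (TTCAGCACC) on either strand, and none is there. It holds 3 CpG dinucleotides, where the median over the 32851 windows of this length is 7.

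Below Scn7a, pituicyte-like cells held the calcium channel subunit Cacna2d2, an alpha2delta subunit, at 139 CPM in the old and 283 CPM in the young library. The beta subunit Cacnb4 followed at 83.2 CPM (old) and 132 CPM (young) and the potassium channel Kcnh1 (EAG type) at 43.0 (old) and 95.3 (young). Cacna2d1, the alpha2delta subunit of the endocrine classes, was at 47.2 CPM in old and 2.8 in young pituicyte-like cells. Among 83 other genes of excitability (pumps, exchangers, calcium stores, chloride and TRP channels, channel regulators), Ano1, a calcium-activated chloride channel, marked pituicyte-like cells at 97.1 CPM (old) and 188 CPM (young), and Ano6, of the same family, at 219 (old) and 359 (young).

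Stem cell-like cells were marked by Kcnk1, a weakly rectifying leak (K2P) potassium channel. It stood at 449 CPM (421 to 479) in the old and 485 CPM (469 to 501) in the young library, 3.30 (old) and 5.27 (young) times its level in endothelial cell-like cells, the next class. Thinned to 2000 UMIs, 50.2% of old and 52.3% of young stem cell-like cells had a Kcnk1 UMI, against 1.95% of old and 0.654% of young T or NK cell-like cells. The second was Kcnab1, a Kvbeta subunit, at 81.4 CPM (old) and 70.5 CPM (young) and 2.93 (old) and 2.09 (young) times the level in pituicyte-like cells. Kcnab1 fell below the rule under 7 of the 18 other settings tried for filters, clustering, scaling and free RNA (called alternatives below). These were 2 of 47 channels measured, where 2.14% of all genes marked the class. The sodium channel pores together reached only 25.1 CPM (old) and 18.7 CPM (young) in stem cell-like cells. Atp1b1, a subunit of the sodium pump, marked the class among the other excitability genes, at 2908 CPM (old) and 3104 CPM (young). The Kcnk1 start lies at chr8:125994852-125995151 (GRCm38.p6, RefSeq, plus strand), with 10 CpG dinucleotides and 1 match of the SOX core on the reverse strand, in capitals; it is shown because SOX factors define these cells.
Kcnk1: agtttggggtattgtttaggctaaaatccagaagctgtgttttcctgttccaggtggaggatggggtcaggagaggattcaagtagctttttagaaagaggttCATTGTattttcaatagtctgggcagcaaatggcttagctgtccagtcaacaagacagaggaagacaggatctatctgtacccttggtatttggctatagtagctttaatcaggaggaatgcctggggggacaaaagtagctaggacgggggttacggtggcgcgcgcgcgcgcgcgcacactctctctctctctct
Of all 32851 windows, 12.6% hold a SOX core on either strand, 5.29% the homeodomain core, 13.7% the T-box motif and 0.371% the RE1 motif, so a match describes the letters and no more.

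Melanotroph-like cells were marked by Scn2a, a neuronal sodium channel pore, at 182 CPM (156 to 211) in the old and 190 CPM (134 to 263) in the young library. Corticotroph-like cells, which share the hormone precursor Pomc with them, came next at 30.0 CPM (old) and 8.5 CPM (young). Thinned, 24.8% of old and 25.0% of young melanotroph-like cells had a Scn2a UMI, against 3.54% of old and 2.01% of young corticotroph-like cells and 0 of 154 old and 0 of 153 young T or NK cell-like cells, which allows shares of cells with a UMI at this depth, not of cells expressing the gene, of up to 1.95% (old) and 1.96% (young). Kcnc1, a fast delayed rectifier that lets cells fire rapidly, was the second mark at 131 CPM (old) and 124 CPM (young), 5.20 (old) and 3.48 (young) times the level in corticotroph-like cells. They were 2 of 22 channels measured, where 1.44% of all genes marked the class, and both held under each of the 17 alternatives that had the class. Scn2a has 2 windows in the table; the downstream start, at chr2:65668436-65668735 (GRCm38.p6, RefSeq, plus strand), is shown with its T-box motifs in capitals, since a T-box factor, Tbx19, acts in both Pomc cell types. It holds 9 CpG dinucleotides, and no match overlaps a match of another motif.
Scn2a: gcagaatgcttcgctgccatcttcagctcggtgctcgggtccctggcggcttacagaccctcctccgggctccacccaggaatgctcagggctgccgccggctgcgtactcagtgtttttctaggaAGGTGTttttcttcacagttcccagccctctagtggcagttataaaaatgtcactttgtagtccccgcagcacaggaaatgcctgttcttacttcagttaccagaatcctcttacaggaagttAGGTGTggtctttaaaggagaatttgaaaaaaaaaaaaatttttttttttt
The upstream Scn2a window held no match of the motifs searched.

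The sum of sodium channel pores in melanotroph-like cells was 419 CPM in the old and 474 in the young library, the highest of the endocrine classes, with Scn3a at 148 CPM (old) and 165 CPM (young). L-type calcium channel pores, through which pituitary cells take up calcium during firing, summed to 312 CPM (old) and 309 CPM (young) there, almost all from Cacna1d at 290 (old) and 299 (young). The sum of P/Q-, N- and R-type pores was 206 CPM (old) and 139 CPM (young). Cacna2d1 stood at 345 CPM (old) and 376 CPM (young). Kcnk2 (TREK-1, a leak channel opened by stretch and lipids), high in the other 3 main endocrine classes and in stem cell-like cells, was at 63.0 CPM (old) and 82.4 CPM (young) in melanotroph-like cells, below the 125 CPM (old) and 162 CPM (young) of empty droplets. Camk2a, a calcium-dependent kinase, marked the class among the other excitability genes at 109 CPM (old) and 160 CPM (young).

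**Figure D2:**
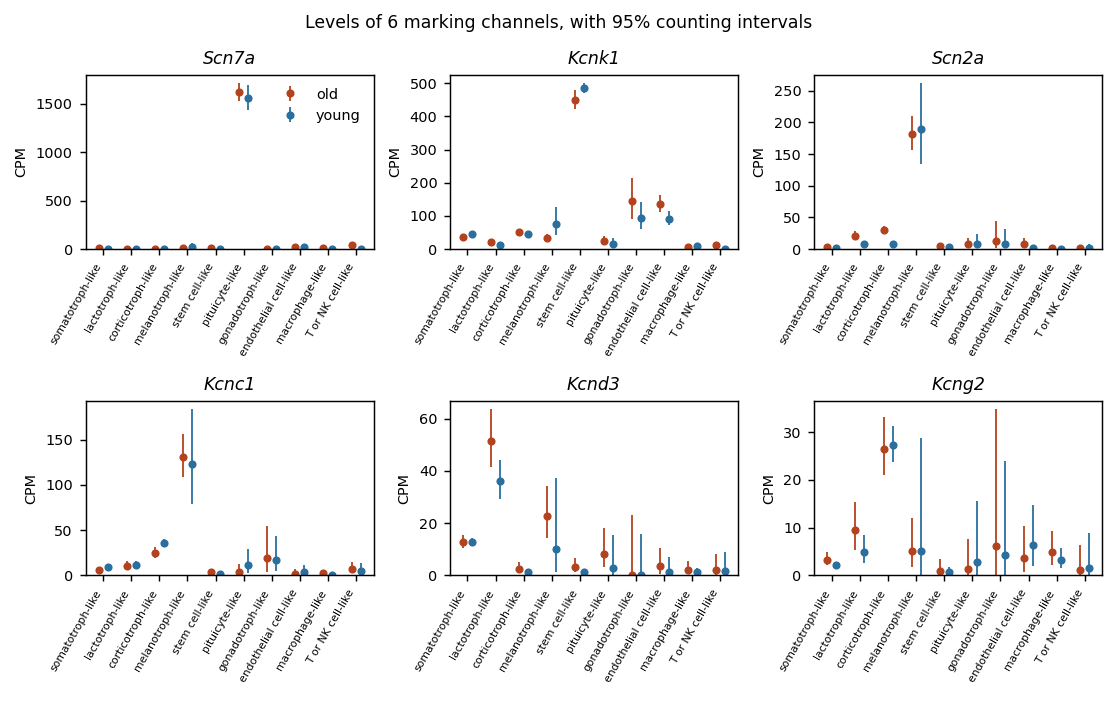
Each panel shows the CPM of 1 marking channel (vertical axis from 0) in 10 cell classes, old library in red at the left and young in blue at the right of each class, with bars for the 95% counting interval. Scn7a stands out in pituicyte-like cells, Kcnk1 in stem cell-like, Scn2a and Kcnc1 in melanotroph-like, Kcnd3 in lactotroph-like and Kcng2 in corticotroph-like cells, and in each of these classes the libraries differ by less than 2-fold.

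Lactotroph-like cells were marked by Kcnd3, a pore of the rapidly inactivating A-type potassium current, at 51.6 CPM (41.3 to 63.6) in the old and 36.2 CPM (29.2 to 44.3) in the young library. The next classes were melanotroph-like cells at 22.7 CPM in the old and somatotroph-like cells at 12.9 CPM in the young library. It was 1 of 47 channels measured, where 0.529% of all genes marked the class. Thinned, 10.1% of old and 9.11% of young lactotroph-like cells had a Kcnd3 UMI, against 0 of 154 old and 0 of 153 young T or NK cell-like cells. The channels of highest level were Cacna2d1 at 376 CPM (old) and 194 CPM (young), Kcnk2 at 286 (old) and 211 (young), Cacna1d at 261 (old) and 173 (young), and Kcnh8 (ELK type) at 197 (old) and 135 (young). Scn3a led the sodium channels at 180 CPM (old) and 90.5 CPM (young).

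Corticotroph-like cells were marked by Kcng2, a silent Kv subunit that forms channels only together with Kv2 pores, at 26.6 CPM in the old and 27.3 CPM in the young library, 2.80 times lactotroph-like cells in the old library and 4.34 times endothelial cell-like cells in the young. A second silent subunit, Kcng3, met the rule on few UMIs, 13 old and 19 young, at 4.5 CPM (old) and 2.4 CPM (young). These were 2 of 67 channels measured, where 0.631% of all genes marked the class. Kcng2 fell below the rule under 4 and Kcng3 under 7 of 18 alternatives. Kcng3 was listed at 4.3 CPM in young gonadotroph-like cells, a class too small to count in the rule. Kcnk2 led the channels by level, at 344 CPM (old) and 367 CPM (young), followed by Cacna2d1 at 272 (old) and 222 (young) and Cacna1d at 203 (old) and 183 (young). Trpc4, a receptor-operated cation channel, marked the class among the other excitability genes at 10.4 CPM (old) and 4.1 CPM (young), but gonadotroph-like cells were higher, at 31.2 (old) and 8.6 (young).

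Somatotroph-like cells were marked by channels of low to moderate level. Cacna1h, a T-type calcium channel pore that opens near the resting potential, stood at 47.4 CPM (42.6 to 52.5) in the old and 42.1 CPM (39.7 to 44.7) in the young library. Its next classes were oligodendrocyte-like cells at 18.2 CPM in the old and pituicyte-like cells at 19.6 CPM in the young library, and empty droplets held 18.9 CPM (old) and 13.9 CPM (young). Kcnk10 (TREK-2, a leak channel) was at 19.5 CPM (old) and 12.8 CPM (young). In all 3 of 75 channels measured met the rule, where 0.348% of all genes marked the class. Thinned, 8.03% of old and 6.34% of young somatotroph-like cells had a Cacna1h UMI, against 1.30% of old and 0.654% of young T or NK cell-like cells.

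By level, Kcnk2 led the protein-coding channels of somatotroph-like cells, at 328 CPM in the old and 426 in the young library, with Cacna1d at 193 (old) and 189 (young). The subunits of the BK channel, a calcium-activated potassium channel that shapes the bursts of these cells, summed to 350 CPM (338 to 364) in old and 334 CPM (327 to 341) in young somatotroph-like cells. The other 3 main endocrine classes summed to between 106 and 145 CPM in the old and between 116 and 149 CPM in the young library for the same genes. The pore Kcnma1 gave 150 CPM (old) and 106 CPM (young) of the sum and the accessory subunit Kcnmb4 116 (old) and 141 (young). T-type calcium channels summed to 54.8 CPM (old) and 50.4 CPM (young), against at most 23.7 CPM (old) and 22.4 CPM (young) in the other 5 of the 6 classes. Inward rectifiers summed to 117 CPM (old) and 113 CPM (young) in somatotroph-like cells and 43.1 CPM (old) and 29.9 CPM (young) in stem cell-like cells. Pores of the Kv1 to Kv4 families, the delayed rectifier and A-type channels, summed to 517 CPM (old) and 484 CPM (young) in melanotroph-like cells, and the other 5 classes lay between 142 and 341 CPM in the old and between 118 and 312 CPM in the young library. Pacemaker (HCN) pores stayed low, between 5.5 and 32.4 CPM in the old and between 2.8 and 41.2 CPM in the young library over the 6 classes.

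**Figure D3:**
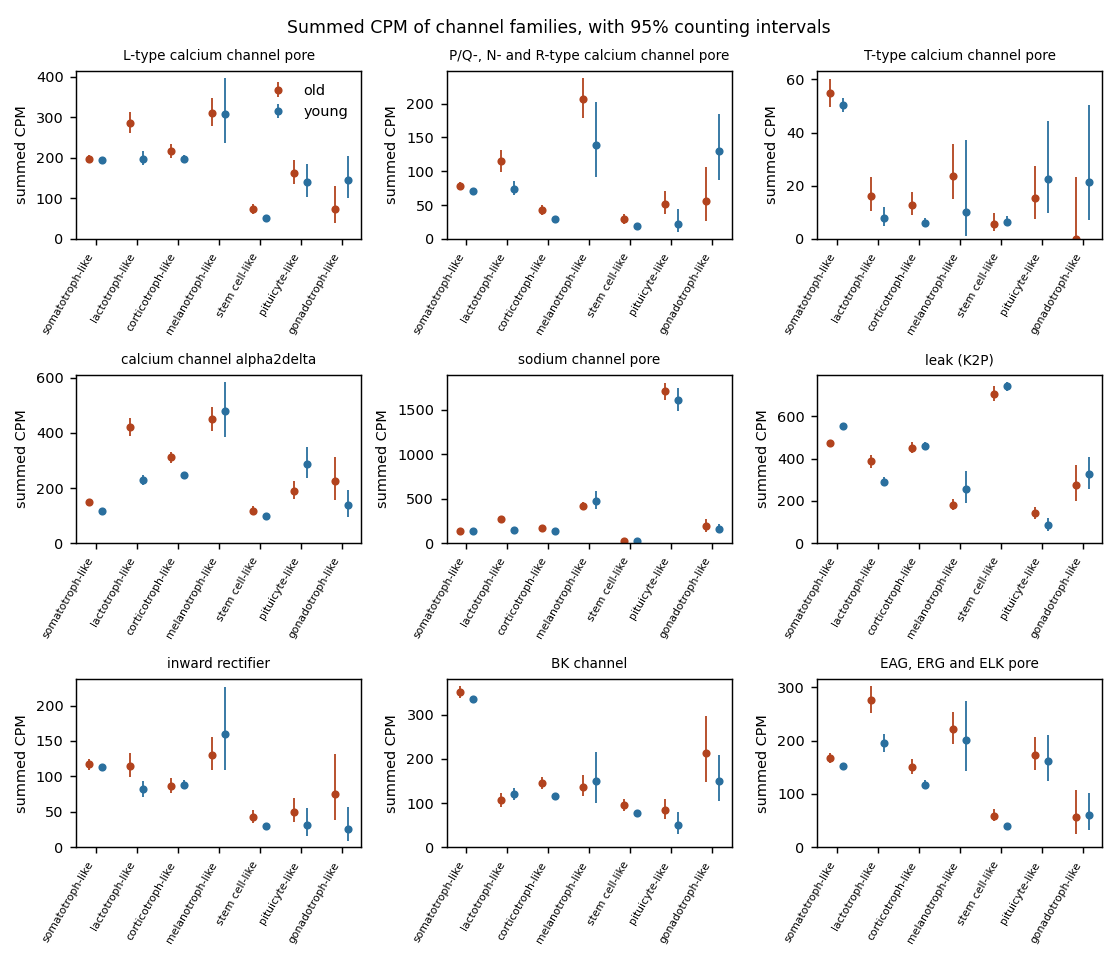
Each panel gives the summed CPM of a channel family (vertical axis from 0) in 7 cell classes, old library in red at the left and young in blue at the right, with bars for the 95% counting interval. BK and T-type channel genes are highest in somatotroph-like, sodium channel pores in pituicyte-like and leak (K2P) channels in stem cell-like cells, while L-type and alpha2delta sums are lower in stem cell-like than in the 4 main endocrine classes. Scn7a alone gives 1618 CPM (old) and 1559 CPM (young) of the pituicyte-like sodium channel sum.

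Gonadotroph-like cells, with 13 old and 18 young cells, are described by level, without a comparison. Kcnd2, another pore of the A-type current, was at 144 CPM (91.1 to 216) in the old and 133 CPM (90.6 to 189) in the young library, against at most 55.3 CPM (old) and 32.4 CPM (young) in the other endocrine classes. Kcna4, also an A-type pore, was at 68.8 CPM (old) and 43.0 CPM (young), against at most 6.56 (old) and 9.94 (young) in those classes. Kcnn3, a calcium-activated SK channel, was at 50 CPM (old) and 21.5 CPM (young) on 8 (old) and 5 (young) UMIs, against at most 21.7 (old, melanotroph-like) and 21.0 (young, corticotroph-like) in those classes.

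Outside the endocrine and glial classes, 2 of 15 channels measured marked endothelial cell-like cells, Kcnk5 at 27.2 CPM (old) and 25.2 CPM (young) and Kcnq1 at 17.8 CPM (old) and 31.5 CPM (young). In the 7 other classes 2.41% of measured pairs of class and gene met the rule over all genes. That cluster scored 6.73 for endothelial and 5.47 for fibroblast markers (mean log2 fold over the median cluster).

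Between ages, a channel was called higher or lower in a class when its old over young CPM ratio was at least 2 or at most 0.5, the 95% interval left out 1, and both libraries together held 20 UMIs, in classes of at least 40 cells per library. Of 404 measured pairs of class and channel over 11 classes, 48 were called higher in the old library, where 4.19% of pairs over all genes were, and 11 lower, where 1.97% were. In all, 42 of the 143 genes were called in at least 1 class. The share of all genes called in at least 1 class was not counted, and the shares of pairs are in another unit. All the channels that marked a class differed by less than 2-fold between libraries in the class they marked. In each of the 11 classes old cells also carried a larger share of the nuclear RNA Malat1, 5.85% of UMIs in old and 4.59% in young corticotroph-like cells, 6.18% (old) and 3.73% (young) in lactotroph-like cells and 3.74% (old) and 2.40% (young) in somatotroph-like cells. Its part in the differences below was not tested. Scaling to all UMIs would raise the log2 ratios by 0.27 in somatotroph-like and 0.13 in lactotroph-like cells, and moved them by at most 0.07 in the other classes.

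Corticotroph-like cells had the most calls by number, though not by share of channels measured, as macrophage-like cells had 9 of 32 called. Of 73 channels measured, 12 were called higher in the old library, where 3.47% of all genes were, and 1 lower, where 1.98% were. The median log2 ratio was 0.19 over the channels and 0.07 over all genes. Scn2a stood at 30.0 CPM (87 UMIs) in old and 8.5 CPM (68 UMIs) in young cells, a ratio of 3.55 (2.56 to 4.95). Kcnh7, an ERG-type potassium channel, stood at 57.3 CPM (old) and 17.5 CPM (young), a ratio of 3.27 (2.60 to 4.12). Both were called under all 18 alternatives, including subtraction of the free RNA profile, and Kcnh7 was higher in old cells within each of the 3 clusters of the class, at ratios of 3.62, 3.06 and 5.50. The last of these rests on 4 old and 2 young UMIs, too few to show a difference in that cluster. Empty droplets held 7 CPM (old) and 0 CPM (young) of Scn2a and 2 CPM (old) and 4.6 CPM (young) of Kcnh7.

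The other named channels higher in old corticotroph-like cells were Kcnc4, a Kv3 pore, at 14.1 CPM (old) and 4.8 CPM (young), Cacna2d2 at 11.7 CPM (old) and 4.1 CPM (young), close to empty droplets at 9.9 CPM (old) and 4.6 CPM (young), Scn7a at 6.2 CPM (old) and 2 CPM (young) and Kcnab1 at 4.1 CPM (old) and 1.4 CPM (young). Kcnab1 rested on 12 old and 11 young UMIs, below empty droplets at 6.9 CPM (old) and 4.6 CPM (young). Its call was lost under 4 of 18 alternatives. Kcnk3, an acid-sensitive leak channel, stood at 14.5 CPM (old) and 5.7 CPM (young), close to empty droplets at 14.3 CPM (old) and 4.6 CPM (young), and the difference lay in 1 cluster, at 16.8 CPM (old) and 5.6 CPM (young). The other 2 clusters, with 1 UMI each in the old library, were at 2.9 CPM (old) and 6.6 CPM (young) and at 6 CPM (old) and 6.5 CPM (young), and the call was lost under 8 of 18 alternatives. Kcnj9, a subunit of the G-protein-gated inward rectifiers that receptors for inhibitory hormones open, was the channel called lower, at 6.6 CPM in old and 15.4 CPM in young cells, a ratio of 0.425 (0.248 to 0.693). Of 62 other excitability genes measured, 5 were called higher and 4 lower. Rrad and Gem, small GTPases that inhibit voltage-gated calcium channels, were among those lower. Rrad was at 4.8 CPM (old) and 31.7 CPM (young) and Gem at 56.9 CPM (old) and 117 CPM (young). In empty droplets Rrad was at 23.4 CPM (old) and 41.6 CPM (young) and Gem at 64.2 CPM (old) and 60 CPM (young). Dpp6, an accessory subunit of A-type channels, was among those higher, at 74.9 CPM (old) and 33.9 CPM (young).

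Scn2a was also called higher in old lactotroph-like cells, at 20.1 CPM (old) and 7.7 CPM (young), and in old somatotroph-like cells, at 3.8 CPM (old) and 1.8 CPM (young), where the call was lost under 7 of 18 alternatives. Scn2a marks melanotroph-like cells, and the 6 melanotroph markers without Pomc moved the same way. They summed to 84.9 CPM in old and 60.9 CPM in young corticotroph-like cells, 124 CPM (old) and 43.5 CPM (young) in lactotroph-like cells, 89.8 CPM (old) and 30.7 CPM (young) in somatotroph-like cells, and 293 CPM (old) and 78.5 CPM (young) in empty droplets. None of the 6 was at 0 in these classes, except Pax7 in young lactotroph-like cells. The part of melanotroph RNA in these Scn2a differences was not tested.

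Lactotroph-like cells had 7 of 50 channels called higher, where 6.47% of all genes were, and 2 lower, where 2.26% were. The median log2 ratio was 0.48 over the channels and 0.14 over all genes. The 2 thyrotroph markers summed to 15.4 CPM in old and 33.5 CPM in young lactotroph-like cells, neither at 0, with 15.1 CPM (old) and 18.5 CPM (young) in empty droplets, and their part in these calls was not tested. Kcnk3 stood at 20.7 CPM (35 UMIs) in old and 5.8 CPM (15 UMIs) in young cells, a ratio of 3.59 (1.91 to 7.08). These levels were close to those of empty droplets, at 14.3 CPM (old) and 4.6 CPM (young, 1 UMI). The Kcnk3 call was lost under 2 of 18 alternatives, over which its log2 ratio ran from 0.61 to 3.27. Kcnt1, a sodium-activated potassium channel, stood at 21.9 CPM (old) and 7.3 CPM (young), on 37 (old) and 19 (young) UMIs.

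Of the other calls in lactotroph-like cells, Cacna1h, at 8.9 CPM (old) and 2.7 CPM (young), was no higher than in empty droplets with 18.9 CPM (old) and 13.9 CPM (young), and Kcnn3 was at 10.1 CPM (old) and 4.2 CPM (young). The Cacna1h call was lost under 8 and the Kcnn3 call under 7 of 18 alternatives. Kcna5, a delayed rectifier pore, was lower, at 15.4 CPM in old and 37.0 CPM in young cells, a ratio of 0.417 (0.259 to 0.649). In empty droplets it was at 21.1 CPM (old) and 27.7 CPM (young). Barcodes of 500 to 900 UMIs held 21.9 CPM (old) and 35.4 CPM (young) of Kcna5. Kcnip2, a KChIP subunit of A-type channels, was lower too, at 4.7 CPM (old) and 12.7 CPM (young). Its levels were below those of empty droplets at 6.5 CPM (old) and 18.5 CPM (young, 4 UMIs). Barcodes of 500 to 900 UMIs held 5.2 CPM (old) and 7.3 CPM (young) of Kcnip2, the young value below that of young lactotroph-like cells. Several channels of high level lay just under the 2-fold limit, Scn3a with a ratio of 1.99 (1.67 to 2.37) and Cacna2d1 with 1.93 (1.72 to 2.18). Among 53 other excitability genes, 7 were called higher and 2 lower. Gem was higher here, at 43.9 CPM (old) and 8.5 CPM (young), below empty droplets at 64.2 CPM (old) and 60 CPM (young).

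Somatotroph-like cells, the class with the most cells, had 8 of 85 channels called higher, where 4.7% of all genes were, and 3 lower, where 2.74% were. The median log2 ratio was -0.01 over the channels and 0.02 over all genes. Kcnk3 stood at 25.2 CPM (191 UMIs) in old and 7.8 CPM (208 UMIs) in young cells, a ratio of 3.23 (2.64 to 3.95), and was higher in the old library within all 4 clusters, at ratios between 3.05 and 3.95. Kcnj8, a pore of ATP-sensitive potassium channels, stood at 14.1 CPM (old) and 6.5 CPM (young), a ratio of 2.17 (1.69 to 2.78). Both calls held under all 18 alternatives. Empty droplets held 14.3 CPM (old) and 4.6 CPM (young) of Kcnk3, and 8.2 CPM (old) and 0 CPM (young) of Kcnj8.

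The other named channels higher in old somatotroph-like cells were each under 7 CPM, Scn7a at 6.9 (old) and 1.4 (young), Kcnh3 at 3.7 (old) and 0.8 (young), Kcna3 at 2.6 (old) and 1.1 (young) and Kcnq3 at 1.8 (old) and 0.4 (young). Empty droplets held more Kcnh3 than these cells, 4.5 CPM (old) and 4.6 CPM (young, 1 UMI). Of those lower, Kcns1, a silent Kv subunit, was at 0.9 CPM (old) and 3 CPM (young) and Scn10a, a sodium channel of sensory neurons, at 0.3 CPM (old) and 1.9 CPM (young). Kcnab3, a Kvbeta subunit, had 0 UMIs in old and 29 in young cells. With the old class set to the floor of 3 counts it was 2.75-fold lower. The counting interval allows a difference as small as 2.1-fold. Kcnk2, the leading leak channel, lay inside the 2-fold limits with a ratio of 0.768 (0.735 to 0.803), and Kcnma1 with a ratio of 1.42 (1.33 to 1.52). Among 66 other excitability genes, 2 were called higher and 2 lower, all under 5 CPM.

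**Figure D4:**
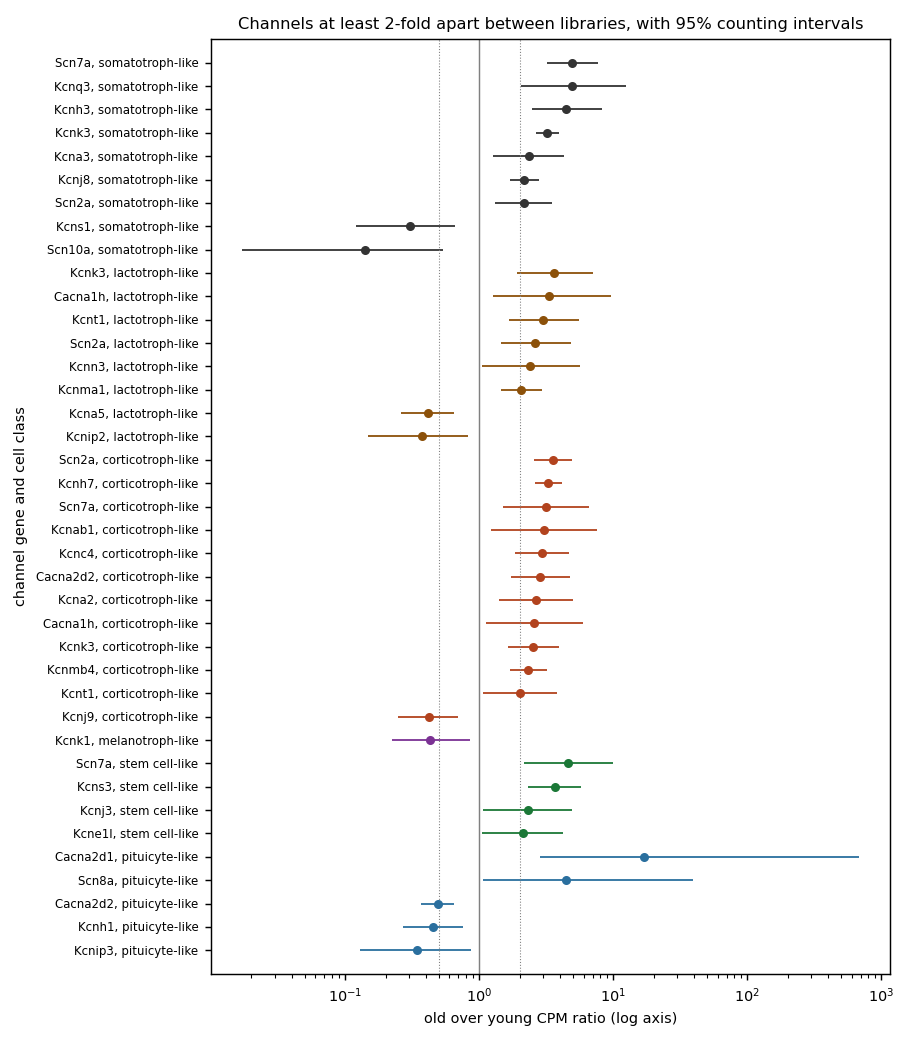
Each point is the old over young CPM ratio (log axis) of a channel called in 1 of the 6 classes, among the channels named in the text, coloured by class, with its 95% counting interval; the dotted lines stand at ratios of 0.5 and 2 and the solid line at 1. Most calls lie at ratios between 2 and 5, and Kcnab3 in somatotroph-like cells, at 0 UMIs in the old library, has no ratio and is not drawn.

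In stem cell-like cells 5 of 60 channels were called higher, where 2.82% of all genes were, and 1 lower, where 1.16% were. The median log2 ratio was 0.23 over the channels and 0.04 over all genes. Kcns3, a silent subunit of Kv2 channels, stood at 19.4 CPM (41 UMIs) in old and 5.3 CPM (40 UMIs) in young cells, a ratio of 3.65 (2.30 to 5.79), and empty droplets held 0.8 CPM (old) and 0 CPM (young) of it. The call held under all 18 alternatives. Kcne1l, an accessory subunit, was at 7.1 CPM (old) and 3.3 CPM (young). Kcnj3, an inward rectifier subunit, was at 6.2 CPM (old) and 2.7 CPM (young), below empty droplets at 17.6 (old) and 36.9 (young), and this call was lost under 8 of 18 alternatives. Of 54 other excitability genes 3 were called higher and 0 lower, the calcium release channel Ryr2 at 10.9 CPM (old) and 3.9 CPM (young), and Unc80 and Unc79, subunits of the sodium leak channel complex, at 22.7 CPM (old) and 8.6 CPM (young) and 13.3 CPM (old) and 6.5 CPM (young). Empty droplets held more of both, 47.9 CPM (old) and 50.8 CPM (young) of Unc80 and 22.7 CPM (old) and 32.3 CPM (young) of Unc79. The 6 oligodendrocyte markers summed to 184 CPM in old and 33.2 CPM in young stem cell-like cells, with Mog and Mobp at 0 in the young, and the 6 melanotroph markers without Pomc to 81.9 CPM (old) and 19.1 CPM (young), with none at 0. Their part in these differences was not tested.

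In pituicyte-like cells 2 of 27 channels were called higher, where 5.75% of all genes were, and 3 lower, where 2.38% were. The median log2 ratio was 0.51 over the channels and 0.12 over all genes. Cacna2d2 stood at 139 CPM (100 UMIs) in old and 283 CPM (101 UMIs) in young cells, a ratio of 0.490 (0.368 to 0.652), just past the limit, and the call was lost under 7 of the 17 alternatives that had a value. Kcnh1 stood at 43.0 CPM (old) and 95.3 CPM (young), a ratio of 0.451 (0.268 to 0.756), and Kcnip3, a calcium-binding protein that acts with A-type channels, at 12.5 CPM (old) and 36.4 CPM (young), below empty droplets at 36.0 CPM (old) and 46.2 CPM (young). The calls of Kcnh1 and Kcnip3 were each lost under 4 of 17 alternatives. Cacna2d1 was called higher on 34 old UMIs against 1 young UMI, at 47.2 CPM (old) and 2.8 CPM (young), a ratio of 16.8 (2.82 to 684), and Scn8a, a sodium channel pore, on 18 old against 2 young, at 25.0 CPM (old) and 5.6 CPM (young), a call lost under 8 of 17 alternatives. Empty droplets held 59.2 CPM (old) and 69.3 CPM (young) of Cacna2d1, and 16.0 CPM (old) and 4.6 CPM (young) of Scn8a. The 3 somatotroph markers without Gh summed to 158 CPM in old and 58.9 CPM in young pituicyte-like cells. Their part in these differences was not tested.

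Among 36 other excitability genes in pituicyte-like cells, 4 were called higher and 1 lower. Parts of the sodium leak channel complex were among the higher ones, the pore Nalcn at 49.9 CPM (old) and 22.4 CPM (young), Unc80 at 90.1 (old) and 36.4 (young) and Fam155a at 29.1 (old) and 8.4 (young). Nalcn rested on 36 old and 8 young UMIs, Unc80 on 65 and 13, and Fam155a on 21 and 3. The ratios were 2.23 (1.02 to 5.54) for Nalcn, 2.47 (1.35 to 4.89) for Unc80 and 3.46 (1.03 to 18.1) for Fam155a. Empty droplets held 23.7 CPM (old) and 64.6 CPM (young) of Nalcn, 47.9 (old) and 50.8 (young) of Unc80 and 46.3 (old) and 46.2 (young) of Fam155a. Gem was the gene called lower, at 31.9 CPM (old) and 171 CPM (young), with 64.2 CPM (old) and 60 CPM (young) in empty droplets.

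In melanotroph-like cells 0 of 41 channels were called higher, where 2.1% of all genes were, and 1 lower, where 2.03% were. The median log2 ratio was -0.07 over the channels and -0.01 over all genes. The channel called lower was Kcnk1, at 33.0 CPM (32 UMIs) in old and 77.2 CPM (15 UMIs) in young cells, a ratio of 0.428 (0.225 to 0.850), with 54.1 CPM (old) and 60 CPM (young) in empty droplets. With 44 young cells, a floor of 3 counts stands at 15.4 CPM in the young class, so lower levels were not detectable there. Of 46 other excitability genes 1 was called higher, Gem, and 0 lower. Gem stood at 255 CPM (old) and 66.9 CPM (young), with 64.2 CPM (old) and 60 CPM (young) in empty droplets.

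Scn7a, the pituicyte mark, was called higher in the old library in 5 classes that hold little of it. It was at 6.2 CPM (old) and 2 CPM (young) in corticotroph-like, 6.9 (old) and 1.4 (young) in somatotroph-like and 8.5 (old) and 1.9 (young) in stem cell-like cells. It was at 12.1 CPM (old) and 1.2 CPM (young) in macrophage-like and 43.1 CPM (old) and 1.6 CPM (young) in T or NK cell-like cells. Empty droplets held 15.5 CPM in the old and 13.9 CPM in the young library, and barcodes of 500 to 900 UMIs 25.9 CPM (old) and 14.3 CPM (young). The 6 pituicyte markers summed to 98.7 CPM in old and 22.2 CPM in young T or NK cell-like cells, where Rax, Nkx2-1, Col25a1 and Gja1 were at 0 in the young library and no marker was at 0 in the old. They summed to 121 CPM (old) and 44.8 CPM (young) in macrophage-like, 99.0 (old) and 57.9 (young) in corticotroph-like, 284 (old) and 225 (young) in somatotroph-like and 452 (old) and 432 (young) in stem cell-like cells. The part of pituicyte RNA was not tested.

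Across the 5 other classes compared, 14 pairs were called higher, where 4.17% of all pairs of class and gene were, and 0 lower, where 1.75% were. Called higher were 2 of 10 channels measured in T or NK cell-like, 2 of 20 in endothelial cell-like, 1 of 2 in B cell-like and 0 of 4 in monocyte-like cells. Macrophage-like cells had 9 of the 14, of 32 channels measured. Kcnj2, an inward rectifier, stood at 16.5 CPM in old and 5.2 CPM in young cells, a ratio of 3.14 (1.70 to 5.99), with 0.7 CPM (old) and 0 CPM (young) in empty droplets. Cacna1a, a P/Q-type pore, was at 26.4 CPM (old) and 9 CPM (young), with 21.5 CPM (old) and 69.3 CPM (young, 15 UMIs) in empty droplets and 25.7 CPM (old) and 21.8 CPM (young) in barcodes of 500 to 900 UMIs. Cacna1s at 7.1 CPM (old) and 2 CPM (young) and Cacna2d1 at 25.8 CPM (old) and 10.5 CPM (young) were called higher too. Cacna1s rested on 13 old and 7 young UMIs, and its call was lost under 7 of 18 alternatives. Its level was 3.5 CPM (old) and 4.6 CPM (young, 1 UMI) in empty droplets. In barcodes of 500 to 900 UMIs it was at 3 CPM (old) and 0.2 CPM (young). Empty droplets held more Cacna2d1 than these cells, 59.2 CPM (old) and 69.3 CPM (young). The part of free RNA in these differences was not tested. In T or NK cell-like cells Kcnj8 was at 39.7 CPM (old) and 19.0 CPM (young), and in endothelial cell-like cells Kcnab1 was at 27.2 CPM (old) and 7.6 CPM (young) and Kcna2 at 21.3 CPM (old) and 7.6 CPM (young). Empty droplets held 10.9 CPM (old) and 23.1 CPM (young) of Kcna2, and the Kcna2 call was lost under 8 and the Kcnab1 call under 3 of 18 alternatives. The 6 fibroblast markers summed to 2559 CPM in old and 5603 CPM in young endothelial cell-like cells. The 5 pericyte markers summed to 635 CPM (old) and 437 CPM (young) there. The part of fibroblast and pericyte RNA in these differences was not tested.

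The member of highest CPM averaged over both libraries in the 4 main endocrine classes was a noncoding RNA, Kcnq1ot1, which is transcribed from the paternal allele inside the Kcnq1 gene, antisense to it, stays in the nucleus and silences neighbouring genes in the mouse embryo and placenta. It reached 1473 CPM in old and 1596 CPM in young melanotroph-like cells, and 933 CPM (old) and 695 CPM (young) in somatotroph-like cells. In corticotroph-like cells it was at 670 CPM (old) and 340 CPM (young), below the 367 CPM of Kcnk2 in the young library. Kcnq1 itself was at or near 0 in all 6 classes, at most 1.42 CPM. Between libraries, Kcnq1ot1 was higher in the old one in 10 of 11 classes, with ratios of 1.97 (1.84 to 2.11) in lactotroph-like and 1.97 (1.86 to 2.09) in corticotroph-like cells. Its ratio was 2.37 (1.56 to 3.66) in B cell-like cells, the class past the 2-fold limit. In melanotroph-like cells the ratio was 0.92 (0.82 to 1.05), an interval that includes 1, as those of pituicyte-like and monocyte-like cells do. Reads of Kcnq1ot1 and of Kcnq1 introns can be told apart only where strand is counted, and the setting is not given in the sources used here.

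**Figure D5:**
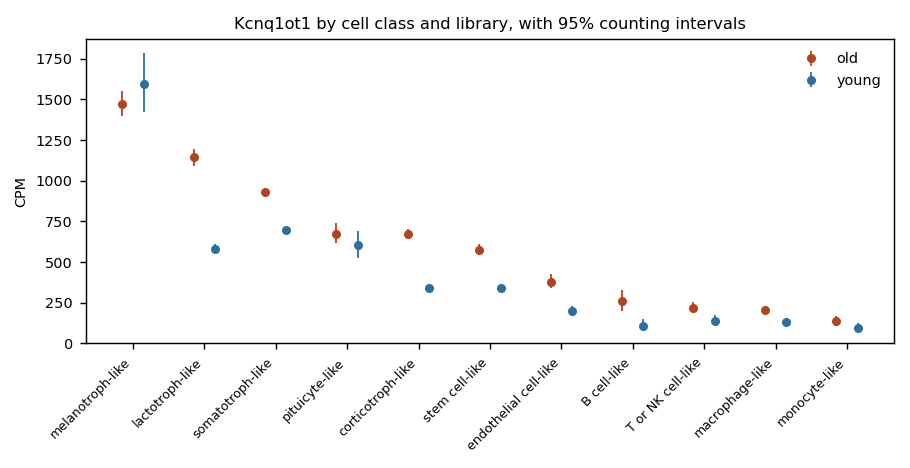
The CPM of Kcnq1ot1 (vertical axis from 0) in 11 cell classes ordered by level, old library in red at the left and young in blue at the right, with bars for the 95% counting interval. The old point lies above the young one in every class except melanotroph-like cells, and the level spans from 1473 CPM (old) and 1596 CPM (young) there to 135 CPM (old) and 97.7 CPM (young) in monocyte-like cells.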

How the data were processed

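Both libraries were droplet-based 3′ single-cell RNA sequencing. The authors deposited raw UMI counts per gene and barcode with no normalisation. The submitters' processing notes name Cell Ranger 6.0.2 and GRCm39, the deposited matrix header names version 4 of that software, and no coordinate of the files was used. The channel genes, the 83 other excitability genes, the markers of 20 classes and the tests were chosen with earlier results of these data known.

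Barcodes with at least 2000 UMIs and 500 genes and at most 15% mitochondrial UMIs were kept, and predicted doublets were removed at 0.8% per 1000 barcodes, 766 (7.83%) in the old and 679 (7.37%) in the young library. Cells of both libraries were clustered together without the channel genes (3000 variable genes, 40 principal components, 15 neighbours, Leiden resolution 1). A cluster took a class name when its marker score was at least 1 and led the next by 0.5, with at least 3 markers detected. Clusters with r of at least 0.95 to barcodes of 10 to 100 UMIs were called free RNA, and clusters with over 30% of UMIs from Gh that were not somatotroph-like stayed unnamed, a rule set after the values were seen.

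UMIs were summed per class and library. Old over young ratios carry exact conditional Poisson 95% intervals and single levels exact Poisson intervals, and a library at 0 was set to a floor of 3 counts. Molecules were counted by UMI, so the intervals cover counting error and nothing between mice. With 1 library per age no test between ages was possible, and no p-value is given. Shares of cells with a UMI were taken after thinning each cell to 2000 UMIs.

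The genes named were every channel marking 1 of the 6 classes, the 3 channels of highest mean CPM in each, every channel called between ages (at most 6 by fold per direction and class), and of the excitability genes at most 4 called per direction and class or 3 marking per class. The gonadotroph-like values, the values in empty droplets and the channels just inside the 2-fold limits were added after the values were seen. A few genes that the rule names are counted but not reported here. Promoter windows are from RefSeq (GRCm38.p6), where 142 of the 143 genes matched by symbol. The 15 alternatives planned and 3 added after seeing the data are reported at the end. The calculation was checked on simulated counts. Software was Python 3.11.15, with scanpy 1.11.5 and igraph 0.11.9 for clustering, scipy 1.17.1 for intervals, and numpy 2.4.6, pandas 2.3.3 and matplotlib 3.10.9.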

Additional observations from a re-analysis of the deposited data

Results flagged for a closer look

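Cacna2d2, an alpha2delta subunit of calcium channels, went opposite ways with age in a pair of classes, past the 2-fold limit in each. In corticotroph-like cells it stood at 11.7 CPM (34 UMIs) in the old and 4.1 CPM (33 UMIs) in the young library, a ratio of 2.86, with 9.9 CPM (old) and 4.6 CPM (young) in empty droplets. In pituicyte-like cells it stood at 139 CPM (100 UMIs) in the old and 283 CPM (101 UMIs) in the young library, a ratio of 0.49. Its level in pituicyte-like cells was above that in corticotroph-like cells in both libraries. The difference between the classes was not tested, since each class has 1 library per age. The call in corticotroph-like cells held under all 18 alternatives, and that in pituicyte-like cells was lost under 7 of the 17 that had a value.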

How the results depend on the processing

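The main counts were 13 marking pairs of class and channel, 48 pairs higher and 11 lower in the old library. Marking pairs ran from 10 (Leiden resolution 2) to 20 (minimum of 1000 UMIs). Pairs higher in the old library fell to 30 with the minimum UMIs of a gene doubled and reached 64 with CPM over all UMIs and 72 with a minimum of 3 UMIs. Pairs lower numbered 19 with a minimum of 1000 UMIs, and 17 both with a minimum of 3000 UMIs and with Leiden resolution 2, and fell to 8 with the mean over cells and 9 with the minimum doubled. Doubling the minimum leaves fewer genes measured, and of the other changes the cause was not tested. Of the 11 channels marking the 6 classes, between 6 and 11 kept the mark, and of the 59 age pairs between 38 and 59 were called again, the fewest without doublet removal. No named value changed sign past the limits. A mitochondrial limit of 10% left no melanotroph-like class. Subtracting the free RNA profile kept 44 of the 59 age pairs with barcodes of 10 to 100 UMIs and 46 with barcodes of 500 to 900 UMIs. The second subtraction, the weighting of clusters as in the young library and the omission of clusters poor in Malat1 were chosen after seeing the data. No paired analysis was possible because each age has 1 library. No replicate could be left out, so differences between pools and between ages cannot be told apart. The 44 young melanotroph-like and 56 young pituicyte-like cells limit what could be detected in those classes.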

Other observations

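Oligodendrocyte-like cells, myelinating glia found in the old library alone (36 cells), carried channels that the other classes held at low levels, and no comparison between ages was possible. Kcna1, a Kv1 pore, stood at 976 CPM (849 to 1116, 95% counting interval), against 50.9 CPM in old endothelial cell-like cells, the next old class of 20 or more cells. Hcn2, a pacemaker channel, stood at 775 CPM (663 to 901), against 15.5 CPM in old melanotroph-like cells and 15.4 CPM in old empty droplets. Kcnj10, the inward rectifier by which glia take up potassium, stood at 237 CPM (177 to 311), against 24.2 CPM in old macrophage-like cells. It was at 6.93 CPM in old pituicyte-like cells, which are glia too. Kcna6 stood at 114 CPM on 25 UMIs and Kcnq3 at 86.6 CPM on 19 UMIs, and each was below 5 CPM in the other old classes of 20 or more cells.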
